A study of Mus musculus with 8 samples.

Results

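The genes described here are 19 proteoglycan core proteins and 22 enzymes and supply genes of their glycosaminoglycan chains, measured in CH310T1/2 cells, a mouse mesenchymal line in the spelling of the labels. They were chosen by name, as every probe set whose symbol equals one of these 41 genes, and 40 of the 41 were measured, by 90 of the 45037 probe sets of the array. The exception was Xylt1, an enzyme that starts chains, for which no probe set carried the symbol; it was not analysed here. Of the measured genes, 17 had 1 probe set and 23 had several, and each gene was read by its brightest probe set, the one with the highest mean over the arrays. The brightest probe sets of Chsy1 and Hs6st1 also carry the symbol of a second locus.

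Total RNA was measured on 8 Affymetrix mouse expression arrays, in 4 groups of 2, from micromass cultures, in which cells are plated as dense drops and condense as before cartilage forms. The groups were Erg on day 1, with Erg-010 driven by the Col2 promoter, control plasmid on day 1, Erg on day 0, with Erg-010 driven by the CMV promoter, and control plasmid on day 0. Erg is a transcription factor of the ETS family, and every culture, control cultures included, had been electroporated. In the Erg arrays the promoter changed together with the day, so the effects of promoter and day cannot be told apart there. The labels do not state that the 2 repeats of a group were separate cultures, so p-values measure only the spread between repeats, and that spread may be technical.

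Proteoglycans are core proteins that carry long, sulfated sugar chains, and these chains give cartilage its swelling pressure and hold growth factors near the cell. A chain starts with a xylose on the core, is extended as chondroitin sulfate or heparan sulfate, and is then sulfated in the Golgi apparatus by enzymes that draw on a common sulfate donor, PAPS. Heparan sulfate can be edited again outside the cell by the sulfatases Sulf1 and Sulf2, which remove sulfate groups from finished chains. When mesenchymal cells condense before they form cartilage, versican (Vcan) is a known component of their matrix, while aggrecan (Acan) is the core protein of mature cartilage.

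The values are log2 RMA intensities, in which array medians lay between 6.59 and 6.70 and first quartiles between 5.26 and 5.38. The 2 Erg arrays of day 0 differed from each other with an SD of 0.611 over all probe sets, against 0.233 to 0.335 within the other groups, and in the Erg comparison of the days each member whose call changed without replicate 2 of that group is also given without it. The 2 probe sets of Erg itself did not check the labels: the brighter read 8.53 and 7.68 in arrays labelled Erg on day 1, against 8.43 and 8.50 in controls of day 1. On day 0 it read 6.79 and 5.59 in arrays labelled Erg, against 7.30 and 7.61 in controls. It is not known if these probe sets detect RNA from the plasmid, and the groups keep the names of their labels. Marker intensities were summed on the linear scale and the sum was taken to log2, so the brightest genes of a list weigh most. The 6 mesenchymal markers gave 15.43 to 16.38 in the 8 arrays. The 6 chondrocyte markers summed to 12.71 to 12.90 on day 1 and 11.27 to 11.72 on day 0, with Matn1 below the first quartile in all 8 arrays and Acan between 6.24 and 6.72. Markers of leukocytes summed to 9.14 to 10.79, of epithelium to 9.39 to 10.40 and of endothelium to 8.25 to 8.72, and Ptprc, Itgam, Cdh1 and Tie1 lay below the first quartile in all 8 arrays.

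Over the first culture day, Vcan, the sulfatase Sulf2, the heparan-modifying Ndst1 and the PAPS synthases Papss1 and Papss2 rose with either plasmid, by 0.77 to 2.34 log2 units. In the Erg arrays 2 of 19 cores and 4 of 21 enzymes passed an adjusted p of 0.05 in limma with Benjamini-Hochberg adjustment, and all 6 rose. Over all 22657 symbols, 7.82% passed in this comparison and 5.85% passed as higher. In the control arrays 4 of 19 cores passed, 2 higher and 2 lower, and 7 of 21 enzymes passed, 6 higher and 1 lower. There 19.8% of all symbols passed, 10.5% as higher and 9.34% as lower. The cores' share in the controls was therefore near that of the whole array. Counting probe sets in place of genes, 16 of the 90 passed in Erg arrays, all higher, beside 6.99% of all probe sets and 5.32% as higher, and 25 of the 90 passed in controls, 18 higher and 7 lower, beside 19.8%, 11.8% and 7.97% of all probe sets. In bulk RNA, fewer cells of a type and less RNA per cell cannot be told apart.

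Vcan, the large chondroitin sulfate proteoglycan of condensing mesenchyme, rose with either plasmid. It read 13.11 and 13.52 in Erg arrays of day 1, against 11.82 and 11.81 in Erg arrays of day 0. In controls it read 13.30 and 13.20 on day 1, against 11.37 and 11.15 on day 0. All 4 arrays of day 1 lay above all 4 of day 0. The log2 difference between day 1 and day 0 was 1.50 (SE 0.17, limma adjusted p = 0.00767) in Erg arrays, or 2.83-fold, and 1.99 (SE 0.17, limma adjusted p = 0.00258) in controls, or 3.97-fold. Of its 8 probe sets, 5 passed as higher in the Erg comparison and 5 in the control comparison.

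Sulf2, one of the heparan sulfatases, rose as well, and Sulf1, the other one, fell in the controls. Sulf2 read 13.25 and 13.82 in Erg arrays of day 1, against 11.79 and 11.84 in Erg arrays of day 0. The control arrays read 13.40 and 13.23 on day 1, against 11.17 and 10.77 on day 0. The groups did not overlap with either plasmid. The differences were 1.72 (SE 0.22, limma adjusted p = 0.0117) in Erg arrays and 2.34 (SE 0.22, limma adjusted p = 0.00317) in controls, which is 3.29-fold and 5.08-fold. Of the 3 probe sets of Sulf2, 2 passed as higher in each comparison.

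Sulf1 read 8.67 and 7.92 in controls of day 1, against 10.38 and 10.65 in controls of day 0, a difference of -2.22 (SE 0.55, limma adjusted p = 0.0340). In Erg arrays it read 8.93 and 8.36 on day 1, against 10.35 and 8.64 on day 0. There the groups overlapped, because replicate 2 of day 0 already lay low, and the difference of -0.85 (SE 0.55, limma adjusted p = 0.376) did not pass. Without that array the Erg difference was -1.71 (limma adjusted p = 0.0307), and without Erg day 0 replicate 1 it was 0.0035. The log2 value of Sulf2 minus that of Sulf1 in the same array was 4.33 and 5.46 in Erg arrays of day 1 and 4.73 and 5.31 in controls of day 1. It was 1.44 and 3.20 in Erg arrays of day 0, and 0.78 and 0.12 in controls of day 0. Since probe sets differ in how brightly they report a transcript, only the gap between arrays can be read from this quantity, not which gene was more abundant. All 4 arrays of day 1 lay above all 4 of day 0.

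**Figure D1:**
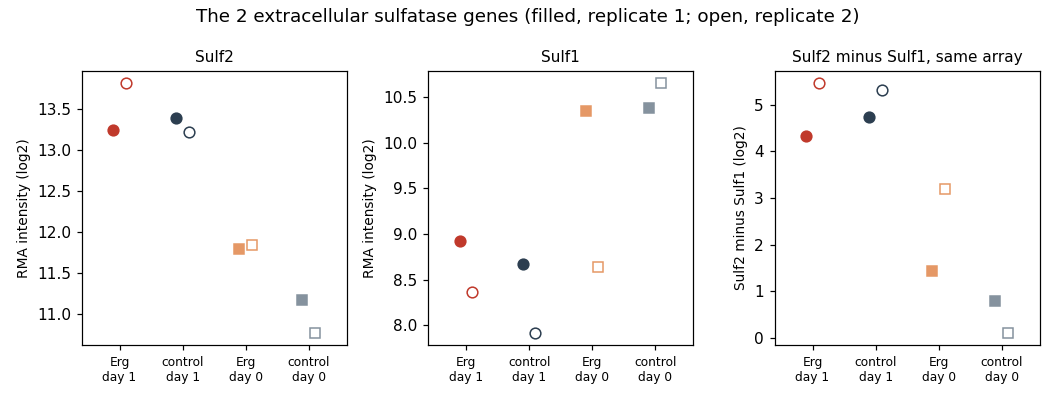
Log2 RMA intensity of Sulf2 (left) and Sulf1 (middle), and their difference within each array (right), for both arrays of Erg day 1, control day 1, Erg day 0 and control day 0. Filled points are replicate 1 and open points replicate 2. Sulf2 lies between 13.23 and 13.82 on day 1 and between 10.77 and 11.84 on day 0, and in Sulf1 the low day 0 array is Erg replicate 2 at 8.64.

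The promoters of Vcan and Sulf2 are shown because these are the core and the enzyme that changed with the smallest p in both day comparisons. The set of RefSeq windows used here, on build GRCm38.p6, covered 31 of the 41 genes, and the others were not searched. Each window has 300 bases, from 250 before to 50 after the start. Capitals mark a GC box (GGGCGG) or, elsewhere, the TATA element (its letters are TATAAA), read on either strand, and each sequence runs 5′ to 3′ on the strand of its gene. The Vcan window lies at chr13:89742463-89742762 on the minus strand and the Sulf2 window, the first of 2 for that gene, at chr2:166155634-166155933 on the minus strand.
Vcan: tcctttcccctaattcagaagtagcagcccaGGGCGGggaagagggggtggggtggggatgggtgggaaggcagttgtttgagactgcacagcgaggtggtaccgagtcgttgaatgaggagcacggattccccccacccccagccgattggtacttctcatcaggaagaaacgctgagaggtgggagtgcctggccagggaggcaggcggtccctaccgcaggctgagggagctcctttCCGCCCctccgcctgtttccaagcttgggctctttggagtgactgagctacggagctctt
Sulf2: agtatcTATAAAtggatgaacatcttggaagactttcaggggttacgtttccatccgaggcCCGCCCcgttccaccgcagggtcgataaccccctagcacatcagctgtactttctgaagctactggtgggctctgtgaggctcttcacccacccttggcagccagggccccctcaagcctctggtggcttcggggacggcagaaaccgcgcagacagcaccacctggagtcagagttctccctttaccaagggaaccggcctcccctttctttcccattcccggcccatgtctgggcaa
The GC content was 61.0% in the Vcan window and 58.0% in the Sulf2 window. A GC box was found in 9 of 14 cores with a window and in 16 of 17 enzymes, against 38.2% of all genes with a window. The TATA element was found in 3 cores (Ogn, Aspn and Srgn) and in 2 enzymes (Hs6st2 and Sulf2), against 15.7% of all genes. Since Erg belongs to the ETS family, CCGGAAGT was searched on both strands and was found in 0 of the 14 cores and 0 of the 17 enzymes, against 4.3% of all genes. Its shorter form CCGGAA, which every CCGGAAGT contains, was found in 2 cores (Sdc4 and Srgn) and 0 enzymes, against 16.7% of all genes. The AP-1 element TGANTCA was found in 0 cores and 0 enzymes, against 9.0%, and the TEAD element CATTCC in 3 cores and 5 enzymes, against 16.6%. A missing match says only that these letters are not in these windows.

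Among the membrane-bound cores the glypicans and syndecans did not move as families. Glypicans are heparan sulfate proteoglycans anchored in the membrane by a lipid, and syndecans span it. Gpc6 read 10.99 and 11.05 in Erg arrays of day 1, against 9.44 and 7.53 in Erg arrays of day 0, a difference of 2.53 (SE 0.55, limma adjusted p = 0.0446). With the control plasmid it read 10.94 and 10.40 on day 1, against 8.63 and 8.85 on day 0, and the difference of 1.93 (SE 0.55, limma adjusted p = 0.0520) did not pass. Neither pair of groups overlapped. Of the 5 probe sets of Gpc6, 3 passed as higher in the Erg comparison and 2 in the control comparison. Without Erg day 0 replicate 2, in which Gpc6 lay lowest, the Erg difference was 1.58 (limma adjusted p = 0.0121).

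Gpc3, a glypican known as a regulator of embryonic growth, fell in controls. It read 6.17 and 6.06 in controls of day 1, against 6.62 and 6.71 in controls of day 0, a difference of -0.55 (SE 0.12, limma adjusted p = 0.0268). In Erg arrays it read 6.18 and 6.07 on day 1, against 6.72 and 6.58 on day 0, and the difference of -0.52 (SE 0.12, limma adjusted p = 0.0563) did not pass. Without Erg day 0 replicate 2 it passed, at -0.59 (limma adjusted p = 0.0483). The arrays of day 1 lay below those of day 0 with either plasmid. By their brightest probe sets Gpc4 differed by 0.79 in Erg arrays and 0.64 in controls, and Gpc1 by -0.39 and -0.26. Neither passed by these, but 1 of the 3 probe sets of Gpc4 passed as higher in Erg arrays. Gpc2 lay below the first quartile of every array.

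The syndecans divided. Sdc1 rose in controls, where it read 11.87 and 11.73 on day 1, against 11.33 and 11.26 on day 0, a difference of 0.50 (SE 0.13, limma adjusted p = 0.0395). Sdc4, a syndecan of cell adhesion sites, fell in controls, where it read 12.17 and 12.15 on day 1, against 12.66 and 12.56 on day 0, a difference of -0.45 (SE 0.12, limma adjusted p = 0.0410). In both genes the arrays of the 2 days did not overlap. Of the 4 probe sets of Sdc1 only the brightest passed in controls, where the 4 differences ran from -0.195 to 0.50. Of the 2 probe sets of Sdc4, 1 passed in controls. In Erg arrays Sdc1 read 11.90 and 11.87 on day 1, against 11.22 and 11.44 on day 0, a difference of 0.55 (SE 0.13, limma adjusted p = 0.0547). In Erg arrays Sdc4 read 12.26 and 12.28 on day 1, against 12.68 and 12.53 on day 0, a difference of -0.33 (SE 0.12, limma adjusted p = 0.145). Neither passed in Erg arrays, although the groups did not overlap. Without Erg day 0 replicate 2, Sdc1 passed there, at 0.67 (limma adjusted p = 0.0328). Sdc2 differed by 0.31 and -0.11 in the Erg and control comparisons by its brightest probe set, and 1 of its other 3 probe sets passed as lower in controls. The brightest probe set of Sdc3 differed by -0.26 and -0.41, and 1 of its other 2 passed as lower in controls.

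The secreted cores other than Vcan did not pass in either day comparison. These were perlecan (Hspg2), a basement membrane proteoglycan, and 7 small leucine-rich cores, a family of matrix proteins of which several bind collagen fibrils. Biglycan (Bgn), one of that family, read 14.47 and 14.50 in Erg arrays of day 1, against 14.38 and 13.37 in Erg arrays of day 0. In controls it read 14.45 and 14.25 on day 1, against 13.94 and 14.12 on day 0. The day 1 arrays lay above the day 0 arrays with either plasmid, and the differences were 0.61 (SE 0.30, limma adjusted p = 0.266) and 0.32 (SE 0.30, limma adjusted p = 0.472).

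Decorin (Dcn), the closest relative of biglycan, read 12.70 and 13.82 in Erg arrays of day 1, against 13.51 and 10.39 in Erg arrays of day 0. The control arrays read 13.03 and 13.53 on day 1, against 13.47 and 13.64 on day 0. The groups overlapped in both comparisons, and the differences were 1.31 (SE 0.92, limma adjusted p = 0.415) and -0.27 (SE 0.92, limma adjusted p = 0.847). Ogn, which encodes mimecan, had differences of 2.21 (SE 0.75, limma adjusted p = 0.130) and 1.79 (SE 0.75, limma adjusted p = 0.131). Its arrays of day 1, at 13.98 and 13.83 with Erg and 13.92 and 13.73 with the control plasmid, lay above all 4 arrays of day 0. Without Erg day 0 replicate 2 the Erg difference of Ogn was 0.87 (limma adjusted p = 0.0331).

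**Figure D2:**
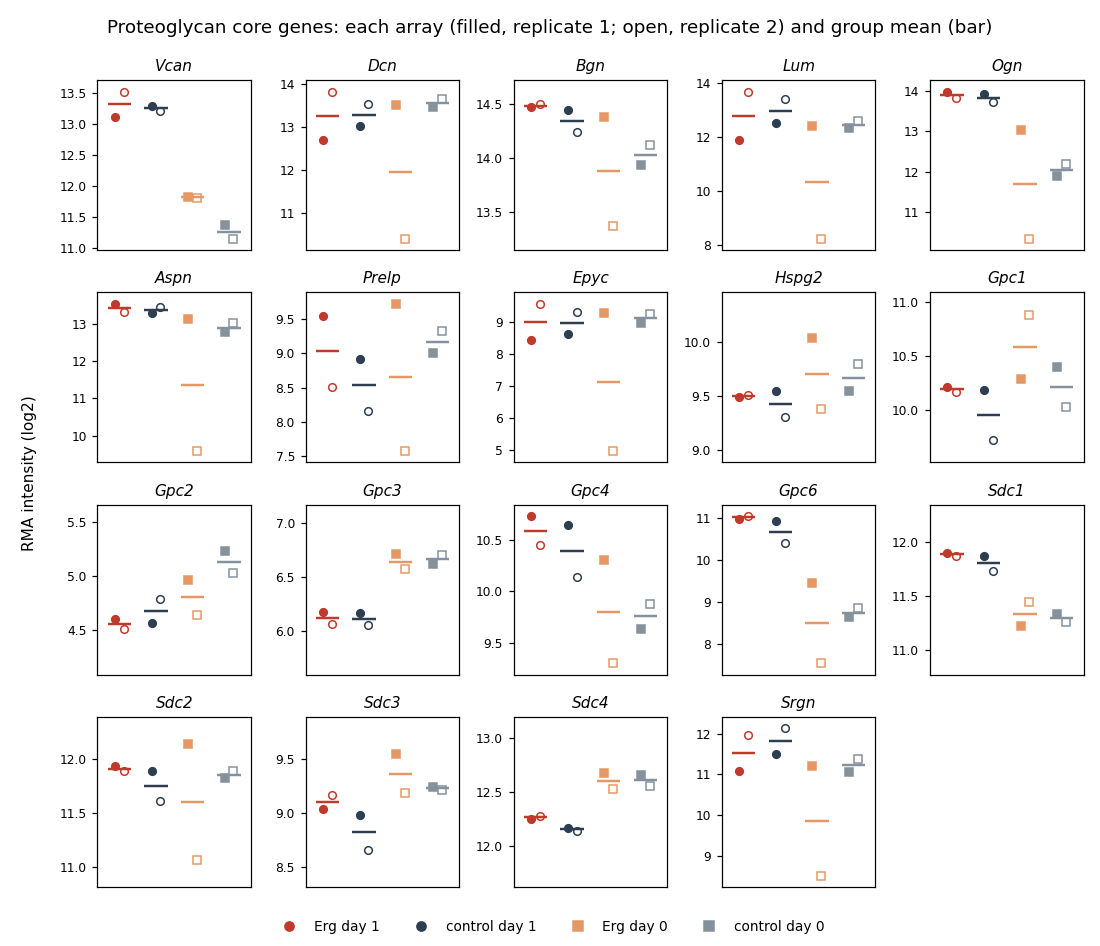
Log2 RMA intensity of the 19 core proteins in each array, with 1 panel a gene and its own vertical scale. In each panel the groups are Erg day 1, control day 1, Erg day 0 and control day 0 from left to right, with replicate 1 filled, replicate 2 open and a bar at the group mean. In Vcan the 4 arrays of day 1 lie between 13.11 and 13.52 and those of day 0 between 11.15 and 11.82, and in Dcn, Lum, Aspn, Epyc and Srgn the open day 0 Erg point lies far below the other arrays.

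The enzymes that rose with either plasmid were Sulf2, the heparan N-sulfating enzyme Ndst1 and both PAPS synthases. Ndst1 starts the sulfation of heparan chains. It read 10.71 and 10.93 in Erg arrays of day 1, against 10.11 and 9.98 in Erg arrays of day 0, a difference of 0.77 (SE 0.13, limma adjusted p = 0.0248). With the control plasmid it read 10.73 and 10.58 on day 1, against 9.70 and 9.76 on day 0, a difference of 0.92 (SE 0.13, limma adjusted p = 0.00825). All 4 arrays of day 1 lay above all 4 of day 0, and 2 of its 4 probe sets passed as higher in each comparison.

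Papss1 and Papss2 make the sulfate donor PAPS, and mutations of human PAPSS2 cause a skeletal dysplasia. Papss2 read 11.66 and 11.02 in Erg arrays of day 1, against 9.93 and 9.26 in Erg arrays of day 0, a difference of 1.74 (SE 0.30, limma adjusted p = 0.0235). In controls it read 11.57 and 11.18 on day 1, against 9.59 and 9.77 on day 0, a difference of 1.69 (SE 0.30, limma adjusted p = 0.0134). Papss1 read 11.92 and 11.72 in Erg arrays of day 1, against 11.00 and 10.31 in Erg arrays of day 0, a difference of 1.17 (SE 0.25, limma adjusted p = 0.0446). Without Erg day 0 replicate 2 this call was lost, at 0.82 (limma adjusted p = 0.0548). Its values in controls were 11.85 and 11.40 on day 1, against 10.57 and 10.63 on day 0, a difference of 1.03 (SE 0.25, limma adjusted p = 0.0348). In both genes the 4 arrays of day 1 lay above the 4 of day 0. Of the 4 probe sets of Papss2, 2 passed as higher in each comparison, and a dim one passed as lower in controls.

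Ugdh, which makes the glucuronic acid donor, read 13.68 and 13.56 in Erg arrays of day 1, against 13.18 and 13.55 in Erg arrays of day 0. The control arrays read 13.63 and 13.30 on day 1, against 13.23 and 13.01 on day 0. The groups did not overlap. Its differences of 0.26 (SE 0.19, limma adjusted p = 0.424) and 0.35 (SE 0.19, limma adjusted p = 0.215) did not pass. The sulfate transporter Slc26a2 differed by 0.36 in Erg arrays and 0.43 in controls, and neither passed.

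Of the 7 genes for chondroitin chain building or Chst sulfotransferases, 1 passed, in controls, where 19.8% of all symbols did. Chst11, a sulfotransferase of chondroitin that mouse cartilage needs for its growth plates, read 10.35 and 10.07 in controls of day 1, against 9.36 and 9.33 in controls of day 0, a difference of 0.86 (SE 0.22, limma adjusted p = 0.0389). In Erg arrays it read 10.44 and 10.26 on day 1, against 9.85 and 9.21 on day 0, a difference of 0.82 (SE 0.22, limma adjusted p = 0.0801) that did not pass. The arrays of the 2 days did not overlap with either plasmid. Of the 3 probe sets of Chst11 only the brightest passed, and in controls the 3 differences ran from -0.14 to 1.87. The chain-building genes Chsy1 and Chpf differed by 0.35 and 0.46 in Erg arrays and by 0.47 and -0.25 in controls. The sulfotransferase genes Chst2, Chst3, Chst7 and Chst12 lay between -0.78 and 0.30 in Erg arrays and between -0.57 and 0.36 in controls, and none of these passed.

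Among the other heparan enzymes, Hs6st1, which adds sulfate that Sulf1 and Sulf2 can later remove, rose in controls. It read 7.73 and 7.56 in controls of day 1, against 7.08 and 6.98 in controls of day 0, a difference of 0.62 (SE 0.13, limma adjusted p = 0.0245). In Erg arrays it read 7.90 and 7.87 on day 1, against 7.26 and 7.48 on day 0, and the difference of 0.51 (SE 0.13, limma adjusted p = 0.0729) did not pass. Without Erg day 0 replicate 2 it passed, at 0.62 (limma adjusted p = 0.0440). The arrays of the 2 days did not overlap. The chain polymerases Ext1 and Ext2 differed by -0.13 and 0.99 in Erg arrays and by -0.28 and 0.50 in controls. Ndst2, Hs2st1 and Hs6st2 differed by 0.44, 0.12 and 1.15 in Erg arrays and by 0.50, -0.01 and 0.84 in controls. None of these passed by its brightest probe set, but 1 of the 4 probe sets of Hs6st2 passed as higher in controls. Xylt2, which starts chains, differed by 0.03 and 0.12.

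**Figure D3:**
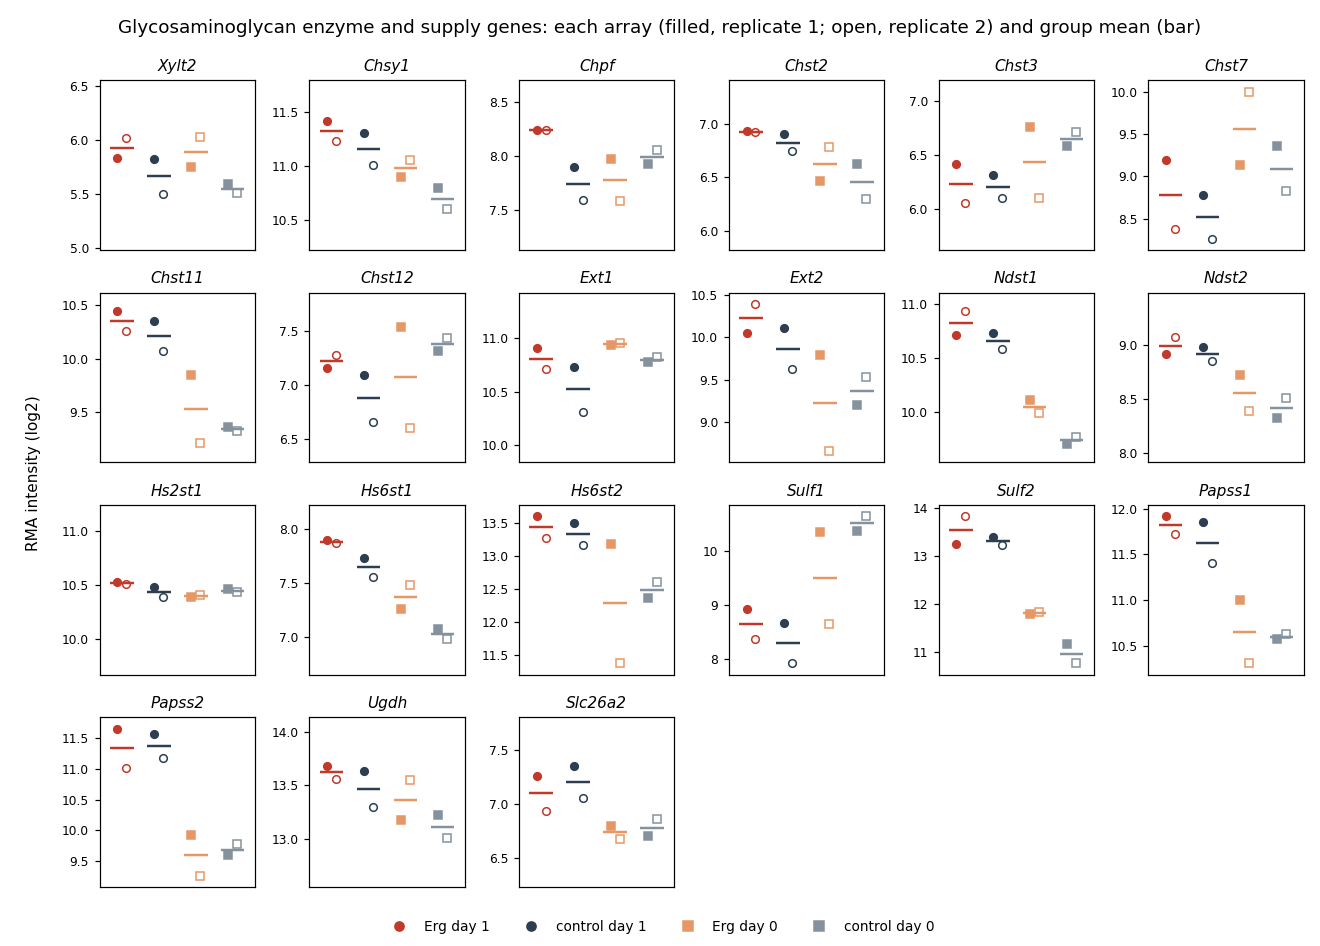
Log2 RMA intensity of the 21 measured enzyme and supply genes in each array, with 1 panel a gene and its own vertical scale. In each panel the groups are Erg day 1, control day 1, Erg day 0 and control day 0 from left to right, with replicate 1 filled, replicate 2 open and a bar at the group mean. Sulf2, Papss1, Papss2 and Ndst1 lie higher in all 4 arrays of day 1 than in all 4 of day 0, and in Sulf1 all 4 arrays of day 1 lie below 3 of the 4 of day 0, Erg day 0 replicate 2 being the exception.

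The 2 day comparisons share no array, though they share the estimate of the spread and the normalization. Of the 6 genes that passed in Erg arrays and the 11 that passed in controls, 5 passed in both in the same direction, which is 83.3% of the Erg calls and 45.5% of the control calls. These were Vcan, Ndst1, Sulf2, Papss1 and Papss2, and 0 passed in opposite directions. The sign was shared by 33 of 40 genes. Across the 40 genes, which share their arrays and are not independent replicates, the differences of the 2 comparisons had a Pearson r of 0.747 and a Spearman rho of 0.776. The coefficients were 0.719 and 0.740 over the 19 cores, and 0.908 and 0.922 over the 21 enzymes. None of these shares and coefficients was computed over all symbols, so they do not set these genes apart from the rest of the array. The median difference over the cores was 0.61 in Erg arrays and -0.11 in controls. The sign of the Erg median rested on 1 array, since it was -0.09 without Erg day 0 replicate 2 and 1.29 without replicate 1. Over the enzymes it was 0.36 in Erg arrays and 0.43 in controls, beside -0.08 and -0.15 over all symbols.

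**Figure D4:**
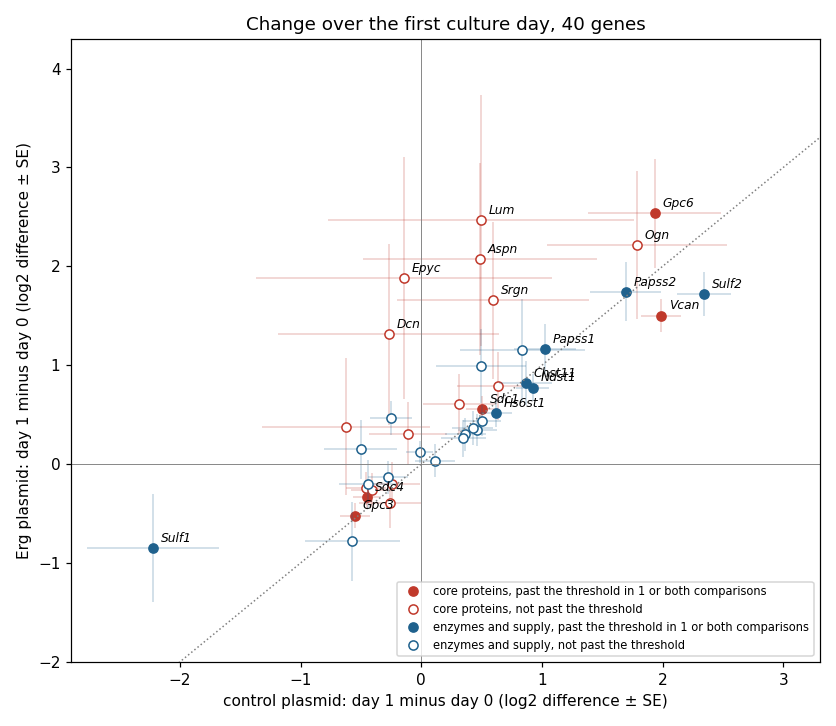
Log2 difference between day 1 and day 0 of each of the 40 genes, with Erg plasmid (vertical) against control plasmid (horizontal). Bars are ± SE from limma, the dotted line marks equal values, filled points passed an adjusted p of 0.05 in 1 or both comparisons, cores are red and enzymes blue. Vcan, Sulf2, Papss1, Papss2 and Ndst1 lie high on both axes, while Lum, Aspn, Srgn, Epyc and Dcn lie high on the Erg axis alone, with wide vertical bars.

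By overlap, both Erg arrays of day 1 lay above both of day 0 in 22 of the 40 genes and below them in 6, beside 24% and 32.8% of all symbols. In controls it was 21 above and 11 below, beside 26.9% and 47.7% of all symbols. By unadjusted p under 0.05 in limma, 15 of 40 genes passed in Erg arrays, beside 27.3% of all symbols, and 17 of 40 in controls, beside 38.1%.

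These counts moved with single arrays. In the Erg comparison, 11 cores passed when Erg day 0 replicate 1 was left out, 5 when replicate 2 of that group was, 0 when Erg day 1 replicate 2 was and 1 when any of the other 5 arrays was, against 2 with all arrays. The share of all probe sets that passed moved too, at 23%, 9.65% and 0.233% without those 3 arrays and 0.864% to 6.21% without any of the other 5, against 6.99%. The enzyme count of 4 became 9, 5 and 0 without the same 3 arrays. It became 1 without the other Erg array of day 1 or either control of day 0, and 3 without either control of day 1. In controls the 4 cores became 9 without either Erg array of day 0 and 1 without any of the other 6 arrays. The 7 enzymes became 9 without either Erg array of day 0, and 3 without either Erg array of day 1. Leaving out replicate 1 or 2 of the day 1 controls gave 2 and 3, and leaving out either control of day 0 gave 1. Of all probe sets, 36.6% passed in controls without either Erg array of day 0, 10.6% without either of day 1, 9.94% and 6.63% without replicate 1 or 2 of the day 1 controls, and 1.8% and 0.813% without replicate 1 or 2 of the day 0 controls. Arrays of the other plasmid enter a comparison through the pooled spread alone. Vcan and Sulf2 passed in the control comparison under all 18 alternatives tried, and in the Erg comparison under 16 and 15 of them. These alternatives include the series table, which holds the same values as the workbook and so could not change a call. The other calls of the Erg comparison, Gpc6, Ndst1, Papss1 and Papss2, were kept under 8, 10, 6 and 11 of 18. In controls, Sdc1 was kept under 7 of 18 and Sdc4 under 5 of 18. Chst11, Papss1, Hs6st1 and Sulf1 were kept there under 9, 10, 12 and 12 of 18. Papss2 and Ndst1 were kept under 14 and 15 of 18, and Gpc3 under 11 of 17.

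Of the 66 other pathway genes listed beside these members, 5 passed in Erg arrays, 4 of them higher, and 14 passed in controls, 7 higher and 7 lower. These shares lie near the 7.82% and 19.8% of all symbols. The median differences of the 66 were 0.003 and -0.06. The 5 that passed in both comparisons were Esm1, Chst15, Gusb, Sgsh and Fam20b. Esm1, the secreted dermatan sulfate proteoglycan endocan, read 8.25 and 8.54 in Erg arrays of day 1, against 12.27 and 10.32 in Erg arrays of day 0. With the control plasmid it read 7.78 and 8.66 on day 1, against 12.16 and 12.43 on day 0. It fell by 2.90 (SE 0.60, limma adjusted p = 0.0392) in Erg arrays and by 4.07 (SE 0.60, limma adjusted p = 0.00858) in controls, and the groups did not overlap.

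Chst15, which adds a further sulfate to chondroitin already sulfated, rose by 1.89 (SE 0.37, limma adjusted p = 0.0327) in Erg arrays and by 1.81 (SE 0.37, limma adjusted p = 0.0198) in controls. The xylose kinase Fam20b, which helps the first sugars of a chain to be extended, rose by 0.67 and 0.58. All 11 genes of lysosomal breakdown had positive differences in both comparisons. Over all symbols the medians were -0.076 and -0.147, and the share with positive differences was not computed. In Erg arrays 2 of the 11 passed and in controls 4, beside 7.82% and 19.8% of all symbols. Among these 11 genes Gusb, the beta-glucuronidase, rose by 0.89 and 0.98. Sgsh, which removes N-sulfate from heparan, rose by 0.80 and 0.82. Of the 18 other cores, 4 passed in controls, all lower, beside 9.34% of all symbols: Bcan, Chad, Esm1 and Optc.

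On day 0 no member passed between Erg and control arrays, in a comparison where 0% of all symbols passed. By unadjusted p under 0.05 it was 3 of 40 members, Vcan, Sulf2 and Hs6st1, beside 6.1% of all symbols, and all 3 had higher values with Erg. Sulf2 read 11.79 and 11.84 in Erg arrays, against 11.17 and 10.77 in controls, a difference of 0.85 (95% interval 0.32 to 1.38, limma adjusted p = 0.802). Vcan read 11.82 and 11.81 in Erg arrays, against 11.37 and 11.15 in controls, a difference of 0.55 (95% interval 0.15 to 0.95, limma adjusted p = 0.802). Hs6st1 read 7.26 and 7.48 in Erg arrays, against 7.08 and 6.98 in controls, a difference of 0.34 (95% interval 0.02 to 0.66, limma adjusted p = 0.802). In all 3 genes both Erg arrays lay above both controls, which held for 12.9% of all symbols and for 7 of the 40 members. The next smallest p values were those of Ndst1, at 10.11 and 9.98 in Erg arrays against 9.70 and 9.76 in controls, and of Xylt2, at 5.76 and 6.03 in Erg arrays against 5.60 and 5.51 in controls. Their differences were 0.31 (95% interval -0.01 to 0.63) and 0.34 (95% interval -0.06 to 0.74).

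Among the members, Erg day 0 replicate 2 stood apart most in the leucine-rich cores. Set against the mean of both day 0 controls, 8 of 19 cores lay at least 1 log2 unit lower in this array (42.1%). So did 2 of 21 enzymes (9.52%) and 2.83% of all symbols. At least 1 log2 unit higher in it lay 0 cores, 0 enzymes and 3.99% of all symbols. In Erg day 0 replicate 1, 0 cores, 0 enzymes and 0.137% of all symbols lay that far below, and 0.11% of all symbols that far above. The 8 cores were Dcn, Lum, Ogn, Aspn, Prelp, Epyc, Gpc6 and Srgn, and the 2 enzymes Sulf1 and Hs6st2. By contrast, Vcan lay 0.55 and Sulf2 0.87 above the control mean in replicate 2, and 0.56 and 0.82 above it in replicate 1.

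The size of this gap can be seen gene by gene. Lumican (Lum), which spaces collagen fibrils, read 12.42 in Erg replicate 1 and 8.23 in Erg replicate 2, against 12.34 and 12.61 in controls. Epiphycan (Epyc), a core found in epiphyseal cartilage, read 9.27 in Erg replicate 1 and 4.98 in Erg replicate 2, against 8.98 and 9.26 in controls. Asporin (Aspn), which lacks the usual attachment site for chains, read 13.12 in Erg replicate 1 and 9.59 in Erg replicate 2, against 12.77 and 13.01 in controls. In these 3 genes replicate 1 lay between -0.05 and 0.23 log2 units from the control mean, and replicate 2 between -4.24 and -3.30. Serglycin (Srgn), the proteoglycan of secretory granules, read 11.20 in Erg replicate 1 and 8.53 in Erg replicate 2, against 11.06 and 11.38 in controls.

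The mean differences of these genes on day 0 did not pass, in a comparison where 0% of all symbols passed. That of Lum was -2.14 (95% interval -5.16 to 0.87), that of Dcn -1.60 (95% interval -3.79 to 0.58) and that of Epyc -1.99 (95% interval -4.91 to 0.92). The median over the 19 cores was -0.25 with both Erg arrays, 0.235 with replicate 1 alone and -0.66 with replicate 2 alone. With replicate 2 alone, 10 members passed as lower, in a fit where 7.54% of all probe sets passed and 54.7% of those were higher, with a spread taken from the other groups since 1 Erg array is left. The same array sets the Erg day comparison for these genes: Lum and Dcn differed by 2.47 and 1.31 between the days with all arrays, and by 0.37 and -0.25 without Erg day 0 replicate 2. The summed level of the 5 adipocyte markers was 11.60 in Erg day 0 replicate 2, against 12.88 to 13.92 in the other 7 arrays, and 3 of the 5 (Adipoq, Fabp4 and Lpl) were lowest there. The summed mesenchymal markers were 15.43 in that array, against 15.98 to 16.38 in the others, and 4 of the 6 were lowest there, among them Col1a1 at 10.53 against 11.42 to 12.52. The epithelial and endothelial sums were also lowest in that array, at 9.39 and 8.25, but the endothelial sum was hardly higher in control day 1 replicate 2, at 8.28. The chondrocyte and leukocyte sums, at 11.39 and 9.75 there, were not. Within day 0, however, the leukocyte sum was lowest there, against 9.86 to 10.79 in the other arrays of that day. The share of all symbols that were lowest in that array was not computed. The part of these markers in the result was not tested.

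**Figure D5:**
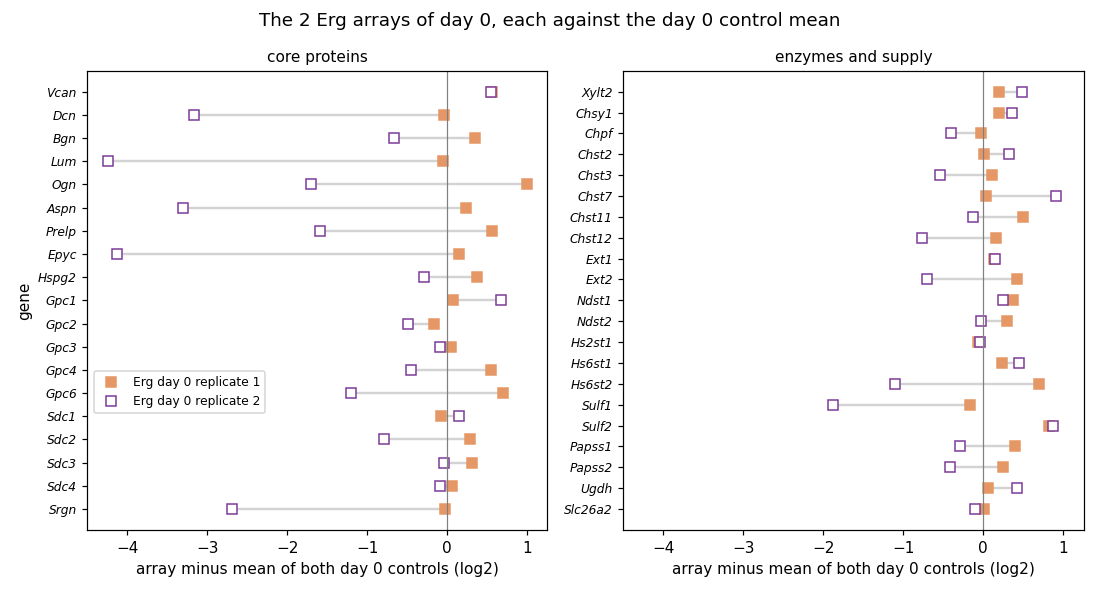
Each Erg array of day 0 minus the mean of both day 0 controls, in log2 units, for 19 cores (left) and 21 enzymes (right), with filled orange squares for replicate 1 and open purple squares for replicate 2. Lum, Epyc, Aspn, Dcn and Srgn lie between -4.24 and -2.70 in replicate 2 and between -0.05 and 0.23 in replicate 1, while in Vcan and Sulf2 the 2 squares nearly coincide.

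Several of these cores lie close together in the genome. In the coordinates of the array annotation, which names no build for them, Dcn (96942185 to 96980797), Lum (97028098 to 97035338) and Epyc (97109723 to 97144534) lie in this order on chromosome 10. Aspn (49639811 to 49662929) and Ogn (49703358 to 49719873) lie together on chromosome 13, and all 5 genes are on the plus strand. The neighbours that are no members were looked up after these values were seen. Kera lies between Lum and Epyc, and Omd between Aspn and Ogn. On chromosome 13, Ecm2 and Omd lay 1.92 and 1.45 below the control mean in Erg day 0 replicate 2, and on chromosome 10 Kera lay 0.46 below it, at 4.94, under the first quartile of the arrays.

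The promoters of Ogn and Aspn are shown as those of the leucine-rich pair on chromosome 13, marked in the same way. Their RefSeq windows on GRCm38.p6 lie at chr13:49607765-49608064 and chr13:49544193-49544492, both on the plus strand.
Ogn: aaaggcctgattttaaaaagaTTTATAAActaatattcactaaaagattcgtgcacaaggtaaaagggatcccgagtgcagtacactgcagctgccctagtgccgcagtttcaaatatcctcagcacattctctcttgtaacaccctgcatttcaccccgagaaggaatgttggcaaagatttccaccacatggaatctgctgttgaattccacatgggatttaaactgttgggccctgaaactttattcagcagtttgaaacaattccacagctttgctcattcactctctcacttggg
Aspn: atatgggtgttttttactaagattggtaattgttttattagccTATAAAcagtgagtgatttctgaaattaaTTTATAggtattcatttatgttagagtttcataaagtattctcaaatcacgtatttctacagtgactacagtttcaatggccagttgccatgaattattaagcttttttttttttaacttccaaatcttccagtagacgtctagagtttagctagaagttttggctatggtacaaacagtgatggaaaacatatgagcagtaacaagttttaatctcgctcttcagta
The GC content was 42.3% for Ogn and 31.0% for Aspn, and in contrast to Vcan and Sulf2 neither window held a GC box. In Ogn the 2 matches to TATAAA, 1 on each strand, overlap. The matches lay 229 and 227 bases before the annotated start in Ogn and 207 and 178 bases before it in Aspn.

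On day 1, with the Col2 promoter, no member passed between Erg and control arrays, where again 0% of all symbols passed. By unadjusted p under 0.05 it was 1 of 40 members, beside 0.768% of all symbols. This was Chpf, a partner of the chondroitin chain-building enzymes, which read 8.24 and 8.24 in Erg arrays, against 7.89 and 7.59 in controls, a difference of 0.50 (95% interval 0.08 to 0.92, limma adjusted p = 1). Both Erg arrays lay above both controls. On day 0 Chpf read 7.97 and 7.59 in Erg arrays, against 7.92 and 8.06 in controls, and the groups overlapped.

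The other 4 members with the smallest p on day 1 were Hs6st1, Ext1, Sdc3 and Xylt2. Hs6st1 read 7.90 and 7.87 in Erg arrays, against 7.73 and 7.56 in controls, a difference of 0.24 (95% interval -0.08 to 0.56). Ext1 read 10.90 and 10.71 in Erg arrays, against 10.73 and 10.31 in controls, a difference of 0.29 (95% interval -0.11 to 0.68) with overlapping groups. Sdc3, a syndecan described mainly in nerve and muscle tissue, read 9.04 and 9.17 in Erg arrays, against 8.99 and 8.66 in controls, a difference of 0.28 (95% interval -0.13 to 0.69). Xylt2 read 5.83 and 6.02 in Erg arrays, against 5.83 and 5.51 in controls, a difference of 0.26 (95% interval -0.14 to 0.66). Apart from Ext1 the groups did not overlap, in Xylt2 by a margin smaller than the printed decimals.

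Small positive differences were common on day 1: 34 of 40 members had one, with a median of 0.14. Over all symbols the median was 0.04, with quartiles of -0.054 and 0.127, so positive differences prevailed there too. Their exact share over all symbols was not computed. After cyclic loess normalization 31 of 40 members had a positive difference. Both Erg arrays lay above both controls in 12 members and below them in 0, beside 21.1% and 9.51% of all symbols. For members that changed over the day, the 95% intervals of the Erg difference on day 1 were -0.33 to 0.47 for Vcan, -0.31 to 0.75 for Sulf2 and -0.74 to 0.67 for Papss2. They were wider for others, at -0.95 to 1.65 for Sulf1 and -0.97 to 1.67 for Gpc6.

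The difference between the 2 Erg effects, day 1 minus day 0, was tested as an interaction, and 0 members passed, as did 0% of all symbols. By unadjusted p it was 1 of 40, beside 2.1% of all symbols. This was Chpf, at 0.71 (SE 0.25, limma adjusted p = 0.974). For Sulf2 the interaction was -0.62 (SE 0.31) and for Vcan -0.49 (SE 0.24), and neither passed (limma adjusted p = 0.974 for both). The Erg difference of Sulf2 was 0.22 on day 1 and 0.85 on day 0, and that of Vcan 0.07 on day 1 and 0.55 on day 0. For Lum and Dcn the interaction was 1.97 (SE 1.79) and 1.58 (SE 1.30), and without Erg day 0 replicate 2 it was -0.12 and 0.02.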

How the data were processed

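The deposited values are RMA intensity values per probe set on a linear scale, made by the authors from 8 arrays. RMA corrects background, normalizes by quantiles and summarises probes by median polish. Per the file headers it was run in Partek, while the series text names dChip, and which was used is not settled. The deposited workbook and series table hold the same values, with a largest relative gap of 4.99e-10. The authors' own means, ratios and p-values were not used. The files hold no detection calls. Precision is limited by having 8 arrays.

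Values were transformed to log2, and 4 group means were fitted to all 45037 probe sets without a filter, with limma 3.58.1 (lmFit and eBayes) in R 4.3.3. Residual degrees of freedom were 4, prior ones 2.776, and the prior SD was 0.168. All adjusted p-values are limma's, by Benjamini-Hochberg across the array, and 0.05 was the threshold. An exact permutation test of 2 against 2 cannot go below 0.333, so none was used. Symbols were split where a probe set carries several, and the brightest probe set stood for each of 22657 symbols. Values in every array are given for 9 of 10 fixed members (Xylt1 has no probe set) and for those past the threshold in both day comparisons, and values of the day compared for the 5 with the smallest p of each Erg comparison; those of other members were chosen after their values were seen. The members, lists and tests were chosen with earlier results of these data known. Promoter windows are RefSeq's. The fit was tested on simulated data, and figures were drawn with matplotlib 3.10.9. Alternatives were another normalization, variance model, probe set rule, filter or weighting, the replicate number as a block, fits to only the arrays compared, and each array left out. The series table was also fitted in place of the workbook.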

Additional observations from a re-analysis of the deposited data

How the results depend on the processing

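Precision was limited by 2 arrays a group. The Erg comparison of the days, with 2 cores and 4 enzymes past the threshold, gave 0 cores and 0 enzymes when its 4 arrays were fitted alone, where 23 probe sets of the whole array passed, against 3146 with all 8 arrays. Array weights gave 0 enzymes (1511 probe sets), cyclic loess 2 enzymes, and averaging a symbol's probe sets 1 enzyme. The control comparison, with 4 cores and 7 enzymes, gave 7 cores with array weights (13973 probe sets, against 8922), 1 core after a filter on dim probe sets, which left 17 of 19 cores, and 4 enzymes with the mean of all probe sets. Gpc3 was among the cores that the filter removed, and Sdc1 and Sdc4 had limma adjusted p = 0.0527 and 0.0583 under it. The cause of these moves was not tested. Of the calls over all probe sets, 76.1% were higher in the Erg comparison and 59.8% in the control comparison; this was 65.8% and 66.1% after cyclic loess and 66.6% and 53% after a second quantile normalization. With each array left out in turn, 0 to 11 cores and 0 to 9 enzymes passed in the Erg comparison, and 1 to 9 cores and 1 to 9 enzymes in the control comparison. Between Erg and control, 0 to 10 members passed on day 0, with 10 only without Erg day 0 replicate 1, and 0 to 0 on day 1. For the difference between the days 0 to 3 passed, with 3 only without Erg day 0 replicate 1. The median over cores in controls, -0.11, was 0.317 after the filter, 0.089 with the mean of all probe sets and 0.198 without control day 1 replicate 1. No member passed in opposite directions under different settings of 1 comparison, but signs turned between leaving out 1 or the other Erg array of day 0. This held for 4 of the 24 members that passed under some setting in the Erg comparison of the days (Dcn, Epyc, Sdc2 and Sulf1), 6 of 10 on day 0 (Aspn, Epyc, Gpc6, Hs6st2, Ogn and Sdc2) and 3 of 3 for the difference between the days (Aspn, Epyc and Ogn), against 0 of 18 in controls.

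The labels do not say whether equal replicate numbers pair the arrays. Deviations from the group means correlated at -0.613 between Erg and control on day 0 and at 0.318 on day 1. They correlated between -0.241 and 0.214 otherwise. With 2 arrays a group these values cannot settle whether the arrays were paired. With the replicate number as a block, 1 core passed in the Erg comparison and 2 in the control comparison, and the enzyme counts stayed at 4 and 7. With the day 0 control numbers crossed, a pairing chosen after seeing the data, the cores were 2 and 3.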
